A study of Homo sapiens with 2 samples.

Results

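The genes described here serve the integrated stress response and the unfolded protein response: the transcription factor ATF4 with its partners and amino acid genes, the stress sensors of the endoplasmic reticulum (ER), and the chaperones and disulfide isomerases that fold proteins in the ER lumen. The list held 38 genes, chosen by name with earlier results of these data known. The array held 19775 genes that had a probe set with exactly 1 symbol. A gene was represented by its probe set with the highest mean over both arrays and counted as measured where either array reached 5.37 on the log2 scale, the median of all probe set means. In all, 37 of the 38 genes and 13311 of the 19775 were measured. TXNDC5, a disulfide isomerase, was the exception, because its 1 probe set carried several symbols, and it has no value here. All 37 had values above the filter level on both arrays, so that none entered through 1 array only.

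The human breast cancer line MDA-MB-231, of the triple-negative kind, had been infected with a virus carrying an empty vector or with one that overexpressed the microRNA miR-203, and total RNA of each stable line was hybridised to 1 array. The design asked which genes differ with miR-203. Both lines grew in the same medium with 10% serum, and the labels name no stress treatment of either. Whether the lines were pools or single clones is not stated in the labels. The values are log2 expression values made by the authors with RMA, which gives arrays nearly equal distributions, and each difference below is the miR-203 value minus the empty-vector value. With 1 array per line there was no replicate error and no test, and miR-203 cannot be told apart from culture, RNA preparation or hybridisation. Over the 13311 genes the differences had a median of 0.013 and an SD of 0.22. Mesenchymal markers of the line were bright on both arrays, with vimentin (VIM) at 13.90 and 13.89, while E-cadherin (CDH1) and the progesterone receptor (PGR) lay under the filter level. The other 5 of 7 receptor and epithelial markers listed as low in this line were measured. The oestrogen receptor (ESR1) was at 6.27 with the empty vector and 6.30 with miR-203, ERBB2 at 8.58 and 8.48, EPCAM at 8.35 and 8.25, and the keratins KRT8 at 10.04 and 9.93 and KRT18 at 12.03 and 11.85. The last 4 of these were above 7.35 on both arrays, the 75th percentile of all probe set means, and so were not low here. Of 6 blood and endothelial markers, 2 were measured, at differences of -0.11 for PECAM1 and -0.090 for CD3E. Of 5 fibroblast markers, 4 were measured and went to both sides, with THY1 at -0.84, DCN at -0.12, COL1A1 at -0.0039 and PDGFRB at 0.35. These are differences by the brightest probe sets. The 4 probe sets of COL1A1 past the filter ran from -0.0039 to 0.79, and the 3 of THY1 from -0.84 to -0.41. On the empty-vector array COL1A1 was at 7.86, THY1 at 7.80, PDGFRB at 6.05 and DCN at 5.67.

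Misfolded protein in the ER is sensed by the membrane proteins PERK (EIF2AK3), IRE1 (ERN1) and ATF6. PERK phosphorylates the initiation factor eIF2, which lowers general translation but favours translation of ATF4, and ATF4 then activates genes for amino acid synthesis and uptake together with the factor CHOP (DDIT3). IRE1 splices the XBP1 mRNA, and XBP1 and cleaved ATF6 activate ER chaperones, disulfide isomerases and the machinery that removes misfolded protein. ATF4 is controlled largely at translation and ATF6 and XBP1 by cleavage and splicing, none of which is read by a 3' array of total mRNA.

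The microRNA is shown first, because its seed is what defines its targets. RefSeq (GRCh38.p14) gives these mature arms of MIR203A, on the plus strand at chr14:104117469-104117490 for the 3p arm and chr14:104117431-104117455 for the 5p arm, with the seed, bases 2 to 8, in capitals. The labels do not say which arm was meant, and the level of miR-203 itself was not measured here.
hsa-miR-203a-3p: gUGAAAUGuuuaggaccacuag
hsa-miR-203a-5p: aGUGGUUCuuaacaguucaacaguu

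Some promoters of the list match the response elements through which these pathways act. They are shown because genes with the same element had different values on these arrays. These elements were searched on both strands in the RefSeq promoters, each 250 bases before to 50 bases after a start. The ER stress response element (ERSE, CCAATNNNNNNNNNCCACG, bound by NF-Y and ATF6) was found in 0.0769% of 35116 promoters, ERSE-II (ATTGGNCCACG) in 0.0541%, the XBP1 element UPRE (TGACGTGG) in 0.729% and the core of the C/EBP-ATF response element (TGATGCAA, here called CARE, bound by ATF4 dimers) in 0.866%. Of the 35 members with a promoter in the table, 5 had an ERSE (HSPA5, HSP90B1, CALR, CANX and PDIA6), 3 an ERSE-II (HYOU1, SDF2L1 and HERPUD1), 2 a UPRE (HYOU1 and TXNDC5) and 5 a CARE core (CEBPG, CHAC1, SLC1A4, SLC1A5 and HERPUD1). A member was counted where any of its promoters had a match, whereas the shares above are per promoter. Only the letters given were searched, so that lack of a match does not show lack of an element. PDIA3, SHMT2 and PSPH had no promoter in the table. CEBPG, SLC1A4, PDIA6 and TXNDC5 had a match in 1 of 2 promoters, SLC1A5 in 1 of 3 and CANX in 3 of 4. In HYOU1 the UPRE overlaps an ERSE-II. These windows lie before the start, read 5′ to 3′ on the strand of the gene, with the matches in capitals. A match on the other strand appears as its reverse complement, and a match is a description of letters and not of binding.
HSPA5 (ERSE), chr9:125241376-125241424, minus strand: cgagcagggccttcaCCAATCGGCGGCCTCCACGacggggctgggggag
CALR (ERSE), chr19:12938369-12938417, plus strand: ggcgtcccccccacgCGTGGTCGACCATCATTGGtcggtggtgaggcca
HYOU1 (ERSE-II, 2 matches, and UPRE), chr11:119057259-119057408, minus strand: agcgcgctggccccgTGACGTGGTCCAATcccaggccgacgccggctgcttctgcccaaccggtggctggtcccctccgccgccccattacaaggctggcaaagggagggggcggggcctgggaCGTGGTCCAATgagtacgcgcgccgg
SDF2L1 (ERSE-II), chr22:21642099-21642139, plus strand: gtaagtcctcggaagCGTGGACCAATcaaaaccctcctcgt
HERPUD1 (CARE core and ERSE-II), chr16:56931951-56932050, plus strand: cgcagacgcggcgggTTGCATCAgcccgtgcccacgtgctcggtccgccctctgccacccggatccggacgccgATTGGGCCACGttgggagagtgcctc
CHAC1 (CARE core), chr15:40953247-40953284, plus strand: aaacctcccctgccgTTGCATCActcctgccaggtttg

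No member differed by 1.5-fold between the lines (0 of 37 higher, 0 of 37 lower), and the differences ran from -0.52 for PHGDH to 0.24 for DNAJB9. Of all genes measured, 0.721% were at least 1.5-fold higher and 1.08% at least 1.5-fold lower, so that few members would be past that fold at the rate of the whole array. At 2-fold the shares were 0.105% and 0.27%. At a difference of 0.32 or more on the log2 scale, the smallest size counted, 3 members were lower and none (0) higher, where 4.55% of all genes were lower and 6.82% higher. The 3 lower members were PHGDH, HERPUD1 and SHMT2. The same 3 lay below the middle 95% of their 500 nearest neighbours in mean level (here the local range), as did 2.67% of all genes, and no member (0 of 37) lay above it, as did 2.7%. The whole list was spread slightly to the lower side: 24 members were below 0 and 13 above, with a median of -0.054, against 45.8% of all genes below 0.

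**Figure D1:**
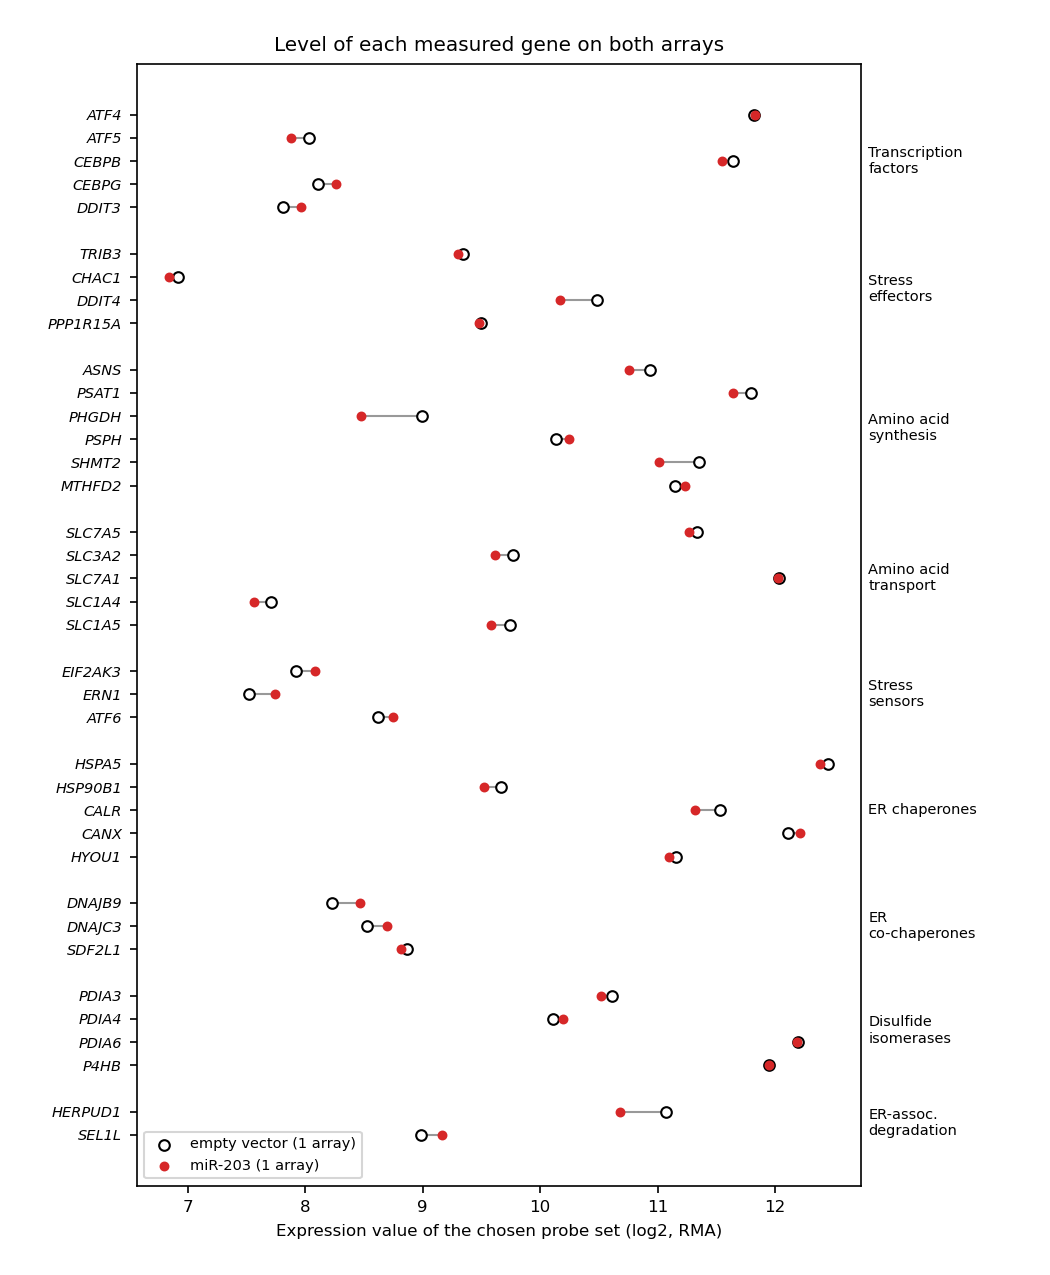
Level of each of the 37 measured genes on both arrays. The horizontal axis is the log2 RMA value of the chosen probe set; open circles are the empty-vector line and filled circles the miR-203 line, with 1 array each, and genes are grouped by role. The symbols of ATF4, P4HB and PDIA6 lie on each other, while those of PHGDH, SHMT2, DDIT4 and HERPUD1 stand apart.

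The ATF4 and amino acid genes, 20 in number and all measured, were below 0 in 15 cases and above in 5, with a median of -0.083 (interquartile range -0.16 to -0.0065). The 12 measured ER chaperones and disulfide isomerases had a median of -0.030 (interquartile range -0.077 to 0.093), with 8 below 0 and 4 above. The branches overlapped over most of their ranges, from -0.52 to 0.15 for the former and from -0.21 to 0.24 for the latter. Both members of these branches that were lower by at least that size, PHGDH and SHMT2, were amino acid synthesis genes. The difference between the branches has no test with 1 array per line.

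ATF4 itself read nearly the same on both arrays: its probe set was at 11.82 on the empty-vector array and 11.83 on the miR-203 array. Its difference of 0.0032 took the opposite sign, at -0.0098, when the median difference of all genes was subtracted. The other transcription factors of the branch went to both sides. ATF5, a paralogue of ATF4 that is also translated under stress, was at 8.03 with the empty vector and 7.88 with miR-203, and its 4 probe sets gave differences from -0.35 to 0.14. CEBPB, a C/EBP factor induced by many stresses, was at 11.65 and 11.55. CEBPG, which dimerises with ATF4 on CARE sites and has a CARE core in its own promoter, was at 8.11 and 8.26, and the other probe set also gave a difference above 0, at 0.12. DDIT3, the pro-apoptotic factor CHOP and a standard reporter of ER stress, was at 7.81 and 7.96. Its difference of 0.15 was surpassed by 141 of the 500 genes nearest in level, whose middle 95% ran from -0.48 to 0.42.

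The stress effectors downstream of ATF4 and CHOP were all lower by small amounts except DDIT4 (4 of 4 below 0, median -0.054). TRIB3, a pseudokinase that restrains ATF4, was at 9.34 with the empty vector and 9.31 with miR-203. The dimmer probe set of TRIB3 differed by -0.17. CHAC1, which degrades glutathione, was at 6.91 and 6.84. PPP1R15A (GADD34), the phosphatase subunit that reverses eIF2 phosphorylation, was at 9.49 and 9.48, and its other probe set differed by -0.0065. DDIT4 (REDD1), an inhibitor of mTORC1 that is also induced by hypoxia and glucocorticoids, stood apart from these at 10.48 and 10.17. Its difference of -0.317 was just short of the smallest size counted and just inside the lower end of its local range. Of the 500 nearest genes, 14 were lower still. It rested on 1 probe set.

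Amino acid synthesis genes held the lowest value of the list (4 of 6 below 0, median -0.16). PHGDH, which commits the glycolytic intermediate 3-phosphoglycerate to serine synthesis, read 8.99 with the empty vector and 8.47 with miR-203. This was 1.43-fold lower, or -0.52, against a local range of -0.29 to 0.46, and 3 of the 500 nearest genes were lower. It was measured by 1 probe set. The enzymes that follow it were nearer to 0. PSAT1, the transaminase after PHGDH, was at 11.80 and 11.65, with differences of -0.15 and -0.19 by 2 probe sets. PSPH, the phosphatase that releases serine, was at 10.13 and 10.25, a difference of 0.12, while its second probe set gave -0.10, so that its direction depends on the probe set.

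SHMT2, the mitochondrial enzyme that splits serine into glycine and a one-carbon unit, was at 11.35 with the empty vector and 11.02 with miR-203, 1.26-fold lower. Its 3 probe sets gave nearly the same difference, from -0.34 to -0.32, although their levels were between 9.11 and 11.35. The local range was -0.30 to 0.40, and 8 of the 500 nearest genes were lower. MTHFD2, the mitochondrial folate enzyme that acts after it, was at 11.15 and 11.23 and had both probe sets above 0, at 0.085 and 0.038. ASNS, asparagine synthetase and a classical ATF4 target, was at 10.94 and 10.76, and 48 of its 500 nearest genes were lower than its difference of -0.18. Within the serine and one-carbon pathway, PHGDH and SHMT2 lay under their local ranges, while MTHFD2 was above 0.

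Amino acid transporters of the list were all on the lower side by small amounts by their brightest probe sets (5 of 5 below 0, median -0.15, none past the smallest size counted). The cystine transporter SLC7A11, outside the list, went the other way, with 3 probe sets from 0.35 to 0.42. SLC7A5 (LAT1), which imports large neutral amino acids, was at 11.34 with the empty vector and 11.26 with miR-203, and SLC3A2 (CD98), the chain it pairs with, at 9.77 and 9.61. The glutamine transporter SLC1A5 (ASCT2) was at 9.74 and 9.58. SLC1A4 (ASCT1), a transporter of serine and alanine, was at 7.71 and 7.56, with 4 probe sets between -0.20 and -0.12. SLC7A1 (CAT1), a transporter of arginine and lysine, was at 12.03 and 12.02 by its brightest probe set, whereas its others spread from -0.31 to 0.20. The differences of SLC7A5, SLC3A2, SLC1A5 and SLC1A4 lay inside their local ranges, with 136, 61, 60 and 82 of the 500 nearest genes lower.

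The sensors were on the other side of 0 (3 of 3 above, median 0.16), as were 6929 of all 13311 genes measured. Their differences were again inside the local ranges. EIF2AK3 was at 7.92 with the empty vector and 8.08 with miR-203. ATF6 was at 8.62 and 8.75, and its 4 probe sets gave differences from 0.12 to 0.23, all above 0. ERN1 was at 7.52 and 7.74 by its brightest probe set, a difference of 0.22, but its other probe sets gave 0 and -0.38, and the median over its probe sets was 0. The sign of ERN1 therefore depends on the probe set, and that of ATF6 does not.

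**Figure D2:**
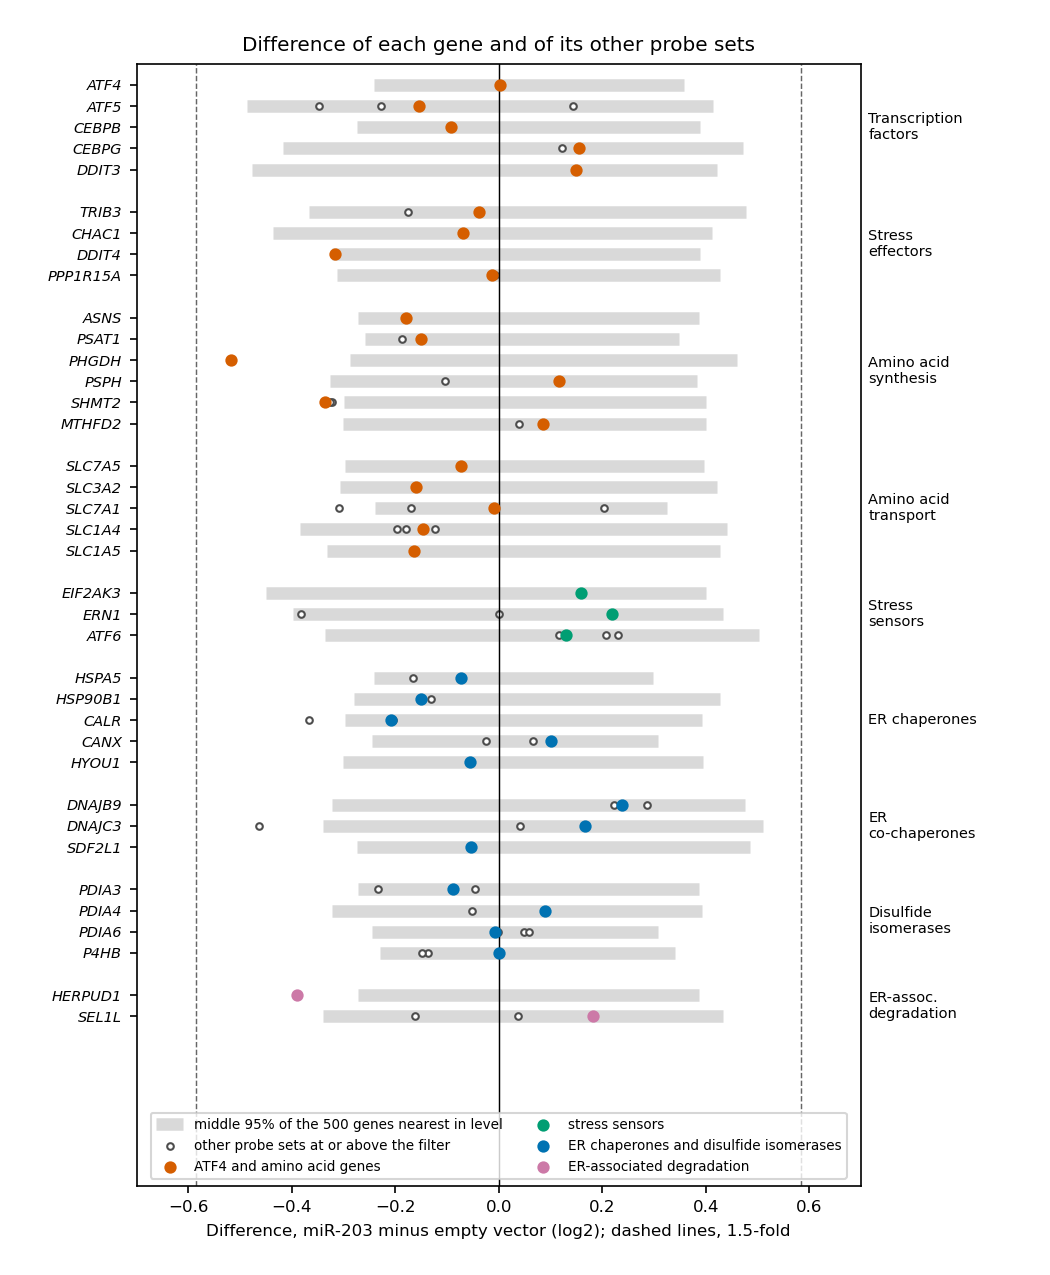
Difference of each gene, miR-203 minus empty vector on the log2 scale. Filled circles are the chosen probe sets, coloured by branch, open circles the other probe sets that passed the filter, grey bars the middle 95% of the 500 genes nearest in level and dashed lines 1.5-fold; PHGDH, SHMT2 and HERPUD1 lie to the left of their bars and no gene lies to the right of its bar.

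ER chaperones were close to 0, with 4 of 5 below it and a median of -0.073. HSPA5 (BiP), the Hsp70 of the ER and the usual reporter of the unfolded protein response, was at 12.45 with the empty vector and 12.38 with miR-203, and its second probe set gave -0.17. HSP90B1 (GRP94) was at 9.67 and 9.52, with differences of -0.15 and -0.13 by 2 probe sets whose names end in _x_at, a suffix for probe sets that can match several transcripts. HYOU1 (GRP170), a nucleotide exchange factor for BiP, was at 11.15 and 11.10. The lectin chaperones of glycoprotein folding parted. CALR (calreticulin), soluble in the lumen, was at 11.53 and 11.32, with 3 probe sets from -0.37 to -0.20, and 35 of its 500 nearest genes were lower. CANX (calnexin), its membrane-bound counterpart, was at 12.11 and 12.21, with 3 probe sets between 0.066 and 0.10 and the dimmest of those passing at -0.024.

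The co-chaperones of BiP also went to both sides. DNAJB9 (ERdj4), a target of XBP1 that represses IRE1, had the highest difference of the list. It was at 8.23 with the empty vector and 8.47 with miR-203, and its 3 probe sets gave 0.22 to 0.29. Of its 500 nearest genes 76 were higher, so that it was well inside the local range of -0.32 to 0.48. DNAJC3 (p58IPK), a co-chaperone that also inhibits PERK, was at 8.53 and 8.69, with differences from -0.46 to 0.17 over 3 probe sets. SDF2L1, a partner of BiP complexes and one of the genes with an ERSE-II, was at 8.87 and 8.81.

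Disulfide isomerases, which form and rearrange disulfide bonds, were close to 0 by their brightest probe sets (1 of 4 above 0, median -0.0033). P4HB (PDI) was at 11.95 on both arrays by its brightest probe set, and its other probe sets gave -0.15 and -0.14. PDIA6 was at 12.19 on both arrays, with 4 probe sets from -0.0065 to 0.059. PDIA3 (ERp57), the partner of CALR and CANX, was at 10.61 and 10.52, with 3 probe sets from -0.23 to -0.046. PDIA4 (ERp72) was at 10.11 and 10.20, and its second probe set gave -0.053. The signs of PDIA4 and PDIA6 thus changed between their probe sets, and those of PDIA3 did not.

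HERPUD1, a membrane protein of ER-associated degradation that is induced through both ATF6 and ATF4, had the second lowest difference of the list. It read 11.07 with the empty vector and 10.68 with miR-203, 1.31-fold lower. The local range was -0.27 to 0.39, and 3 of the 500 nearest were lower than its -0.39. This rested on 1 probe set, named _s_at, as the dimmer one stayed below the filter, at 4.62 and 4.88. SEL1L, the adaptor of the HRD1 ubiquitin ligase in the same process, was at 8.99 and 9.17 by its brightest probe set, a difference of 0.18, and its others gave -0.16 and 0.038.

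**Figure D3:**
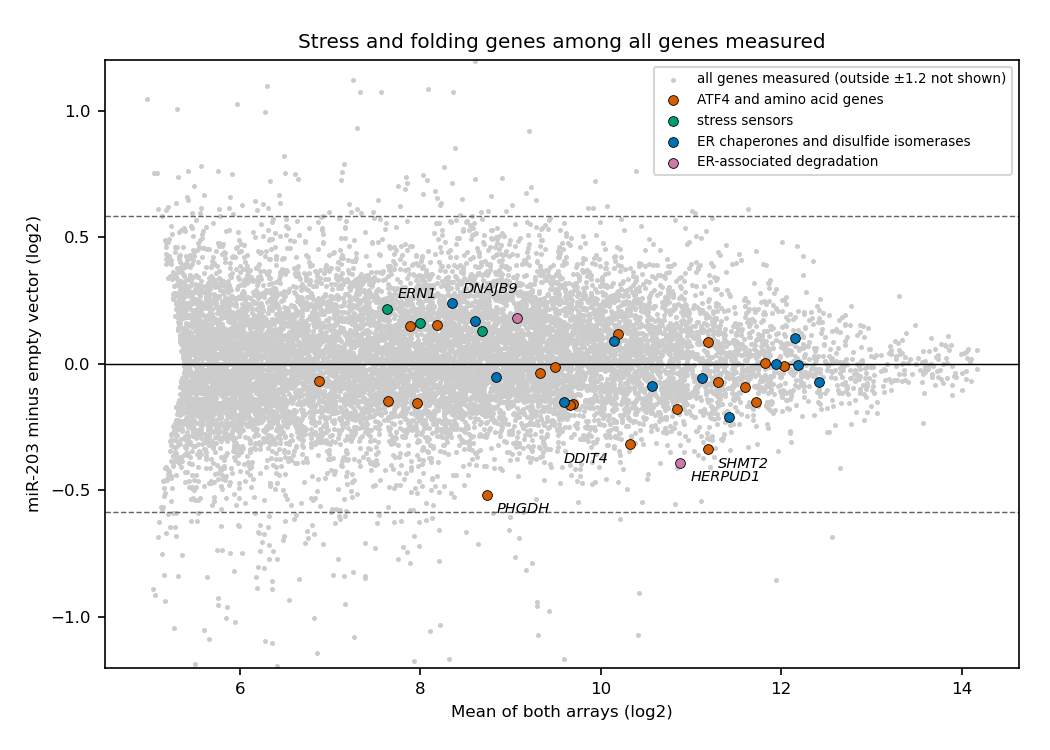
Difference between the arrays (vertical, log2) against the mean of both arrays (horizontal, log2) for all genes measured (grey) and the 37 stress and folding genes (coloured by branch); dashed lines mark 1.5-fold. The coloured points lie within the grey cloud and none passes a dashed line.

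Agreement between probe sets of 1 gene is the internal check these arrays offer, and it covers hybridisation of different probes to the same RNA, not another culture. Of 23 members with several probe sets past the filter, 14 had every probe set on the same side of 0 (60.9%, 10 below and 4 above), against 52.7% of the 6285 genes measured this way. Those below were SLC1A4, SHMT2, PSAT1, TRIB3, PPP1R15A, HSPA5, HSP90B1, CALR, PDIA3 and P4HB, and those above were CEBPG, MTHFD2, ATF6 and DNAJB9. The count takes the sign alone, whatever the size. P4HB was included with -0.0002 by its brightest probe set, and PPP1R15A with -0.013 and -0.0065, values too near 0 to give a direction. PHGDH and HERPUD1, the lowest members, had 1 probe set each and could not be checked in this way. SHMT2 was the one of the 3 counted as lower for which it was possible.

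Members with the same response element had different values. Of the 5 members with an ERSE, HSPA5 was at -0.073, HSP90B1 at -0.15, CALR at -0.21, CANX at 0.10 and PDIA6 at -0.0065, and the 16 measured genes of the array with an ERSE, these included, had a median of 0.012 with 7 below 0 and 9 above. Of the members with an ERSE-II, HERPUD1 was at -0.39, whereas HYOU1 was at -0.057 and SDF2L1 at -0.054; the 18 measured genes with this element had a median of -0.054, with 12 below 0. Of the members with a CARE core, CEBPG was at 0.15, CHAC1 at -0.070, SLC1A4 at -0.15, SLC1A5 at -0.16 and HERPUD1 at -0.39. The 81 measured genes with a CARE core had a median of 0, with 38 below 0 and 40 above. HERPUD1 was the member that held both an ERSE-II and a CARE core in this window.

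Other genes of the same pathways, from 8 further lists, gave few differences past 1.5-fold. CTH, EIF2S3 and AGR2 lay above their local ranges, as did 2.7% of all genes measured. TMX4 and UBE2G2 lay below theirs, as did 2.67% of all genes. EIF2S3 was only just outside, and CTH was at 0.44 against an upper end of 0.42, with its other probe set at 0.29. Among 18 measured ATF4 targets outside the list, 10 were below 0 and 8 above, with a median of -0.020. None was past 1.5-fold by its brightest probe set (0 higher, 0 lower). CBS, at 5.59 with the empty vector and 5.80 with miR-203 by that probe set, had 3 probe sets from -1.36 to 0.21. The largest were CTH, which makes cysteine, at 0.44, JDP2, a bZIP factor, at -0.42 and the cystine transporter SLC7A11 at 0.42. The 17 measured aminoacyl-tRNA synthetases, which charge tRNAs and include ATF4 targets, had a median of -0.042, with 11 below 0. VARS1 was at -0.25, TARS1 at 0.23 and FARSA at -0.19. The eIF2 kinases, eIF2 and eIF2B subunits had a median of 0.054 over 12 genes, with 7 above 0. The largest were the eIF2 subunits EIF2S3 at 0.39 and EIF2S2 at 0.26, and PPP1R15B, the constitutive counterpart of PPP1R15A, at 0.26.

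In the branch of XBP1, ATF6 and the CREB3 factors, 9 genes had a median of -0.050, with 5 below 0. MBTPS2 (site-2 protease), which cleaves ATF6, was at 0.28, ATF6B at -0.20 and CREB3L4 at -0.16. The other probe set of ATF6B gave 0.12. XBP1, named outside the rule because it is the effector of IRE1, was at 8.82 with the empty vector and 8.83 with miR-203. Further ER chaperones and co-chaperones had a median of 0.066 over 20 genes, with 15 above 0. FKBP10 was at -0.32, FKBP14 at 0.26 and CALU (calumenin) at 0.25. Against the median of the genes nearest in level, however, 8 of the 20 were lower, and the median of those differences was 0.031. Further disulfide isomerases and oxidases had a median of 0.074 over 16 genes, with 13 above 0 and 1 past 1.5-fold higher. That gene was AGR2, a secretory disulfide isomerase, at 7.63 and 9.27, a difference of 1.64. TMX4 was at -0.34 and PDIA2 at 0.29, and their other probe sets gave -0.095 and -0.11. Further genes of ER-associated degradation had a median of -0.071 over 20 genes, with 11 below 0 and none past 1.5-fold (0 higher, 0 lower). NGLY1, which removes glycans, was at 0.40, and the ubiquitin-conjugating enzymes UBE2G2 and UBE2J2 were at -0.40 and -0.28. Their probe sets past the filter ran from -0.056 to 0.40, -0.49 to 0.19 and -0.29 to 0.40. The direction of each of these genes therefore depends on the probe set. The translocon and N-glycosylation genes, through which new proteins enter the ER, had a median of -0.012 over 24 genes, with 12 below 0. TUSC3, a subunit of the oligosaccharyltransferase, was at 0.37, the translocon-associated protein SSR1 at 0.36 and OSTC at 0.32. The 4 probe sets of TUSC3 were all above 0, while the 6 of SSR1 ran from -0.35 to 0.36.

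**Figure D4:**
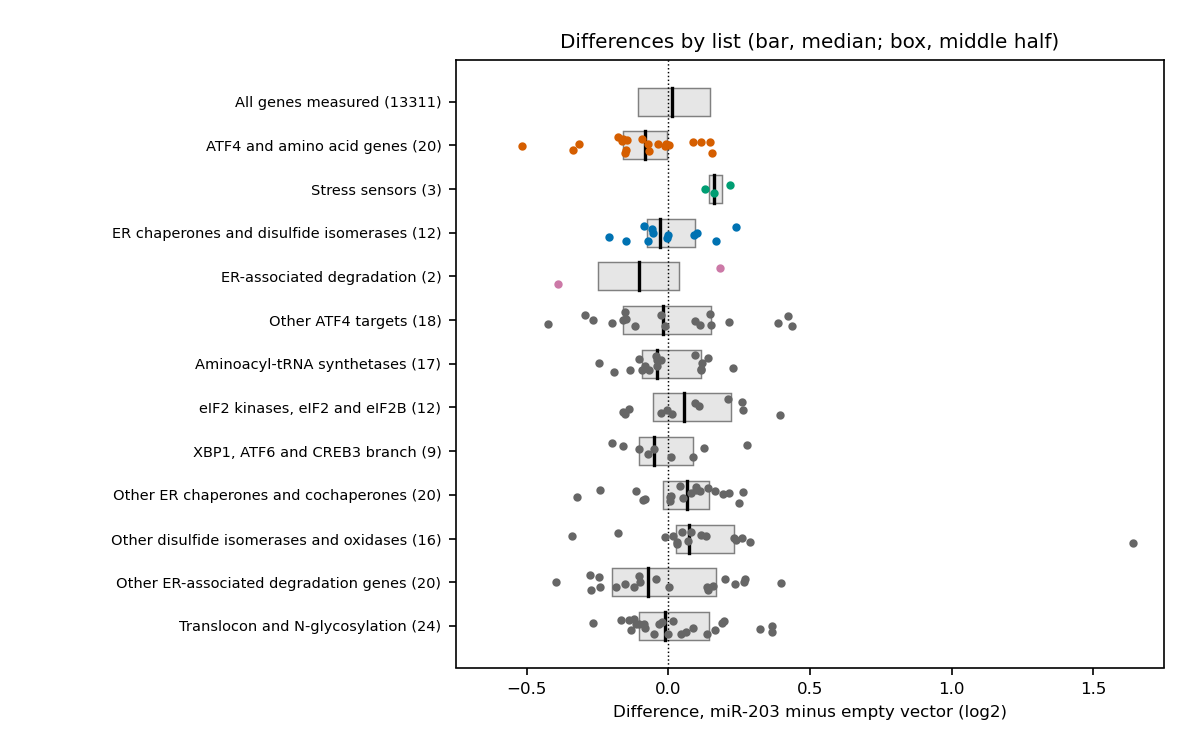
Differences between the arrays (log2, miR-203 minus empty vector) for all genes measured, the branches of the list and the further lists, with the number of measured genes in brackets. Points are genes, boxes the middle 50% and bars the medians; the point at 1.64 is AGR2, and the boxes of the ER chaperones and of all genes measured overlap.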

How the data were processed

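RNA of 2 MDA-MB-231 lines was hybridised to 1 array each, with no replicate. The authors deposited normalised values for 54675 probe sets, made with RMA per the submitters' processing notes (version not given in the sources used here). Deposited values were read as log2 from their range, since no header names the scale. RMA gives the arrays nearly equal distributions, so a shift common to all genes would be removed. Precision is limited by the number of arrays.

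Probe sets were named from the platform annotation, and 41091 carried 1 symbol, 1801 several and 11721 none in the table, beside 62 control probe sets. Each gene was read from its brightest probe set by mean, with a filter at 5.37, the median of all probe set means. Each difference was set beside the 500 genes nearest in mean level. All members were named in the text. Of each further list the 3 largest differences in size were named. Members and lists were chosen with earlier results of these data known. Alternatives were no filter, a stricter filter, the median over probe sets, probe sets without the _x_at and _s_at suffixes, low values raised to the filter level, 2-fold and smaller calls, centring on the median and a lowess fit on level (span 0.3, 3 iterations). Promoters and microRNAs came from RefSeq (GRCh38.p14). The steps were run in Python 3.11.15 with pandas 2.3.3, numpy 2.4.6 and statsmodels 0.14.6. Only the gene table and the 1.5-fold calls were tested on simulated data, with 1 probe set per gene and no filter. The choice of probe set, the filter, the local ranges, the lowess fit and the promoter search were not tested in this way.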

Additional observations from a re-analysis of the deposited data

How the results depend on the processing

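No paired analysis was possible because either line had 1 array, and no replicate could be left out. Under all alternatives run, 0 members were past 1.5-fold; a call at 0.32 on the log2 scale gave 3 lower and 0 higher. The median difference ranged from -0.0995 to -0.070 for the ATF4 and amino acid genes and from -0.055 to -0.024 for the ER chaperones and disulfide isomerases. Without the _x_at and _s_at probe sets, 25 members were measured, and 9 of 13 ATF4 and amino acid genes were below 0, against 15 of 20. The lower count came with fewer genes measured, and HERPUD1 had no value under this alternative. The signs of PSPH, CANX and PDIA4 turned there, at -0.10, -0.024 and -0.053, and that of PDIA6 turned to 0.049. With the median over probe sets, PDIA6 was at 0.024. With 1 array per line the limit is the lack of replicates, and differences of the size seen here, mostly within the range of genes of similar level, cannot be told apart from the variation between preparations.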
